A study of Homo sapiens with 8 samples.

Results

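PCNA peaks from the pericentromeric part of human chromosome 16 were examined in 4 peak lists. The members are all peaks that start between 31 and 48 Mb on chromosome 16 in hg19, and there were 354 of 4020 peaks in all. The lists come from MCF10A, an established line of human mammary epithelial cells that does not form tumours, and *TUBG*-shRNA-MCF10A, a stably transfected MCF10A population obtained under drug selection, in which a short hairpin RNA lowers γ-tubulin. Both cell populations were arrested with a double thymidine block and harvested 1 or 2 h after release, and chromatin was precipitated with an antibody to PCNA. The 4 conditions were MCF10A at 1 h, MCF10A at 2 h, *TUBG*-shRNA-MCF10A at 1 h and *TUBG*-shRNA-MCF10A at 2 h, each with 2 ChIP libraries, 8 in all, and whole-cell lysates as controls. The sources used here name no control hairpin for the MCF10A cells. Peak calling by the authors pooled the pair of libraries, which gave a single list for each condition. Therefore, no spread between replicates is known, and a difference between lists has no replicate check.

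PCNA is the sliding clamp that encircles DNA at replication forks. It is loaded by replication factor C, holds DNA polymerases on the template and recruits many other factors of replication and repair. Pericentromeric DNA flanks the centromere, is rich in repeats and is largely packed as heterochromatin, and chromosome 16 carries a large block of satellite repeats on the q-arm side of its centromere. In hg19, the centromere and most of this block are unassembled gaps, in which no read can be placed. No genome or gene annotation of this build was used here, so neither the sequence under the peaks nor the genes near them are described, and how the peak calling treated reads that match more than 1 place is not given in the sources used here.

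The MCF10A list had 562 peaks at 1 h, of which 59 lay in the window, and 2768 at 2 h, of which 165 did. The *TUBG*-shRNA-MCF10A list had 290 at 1 h, with 58 in the window, and 400 at 2 h, with 72. Nearly all peaks on chromosome 16 lay in it, as the whole chromosome had 60, 170, 61 and 72 peaks in the same order. Just outside the window were 3 peaks in *TUBG*-shRNA-MCF10A at 1 h, between chr16:30933171 and 30934472, with a fold enrichment of 5.37, 7.60 and 4.41. The remaining 6 lay far from the centromere, 1 in MCF10A at 1 h and 5 at 2 h. Fold enrichment is the authors' ratio of reads at the summit of a peak over the local background.

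The share of the list differed between the cell populations. It was 10.5% (95% Wilson interval 8.23 to 13.3) in MCF10A at 1 h and 5.96% (5.14 to 6.91) at 2 h, and 20.0% (15.8 to 24.98) in *TUBG*-shRNA-MCF10A at 1 h and 18.0% (14.5 to 22.1) at 2 h. The intervals of the shRNA lists lay above those of the MCF10A lists at both times. Between 48 and 53 Mb on chromosome 4, they did so at 2 h only, with 18.75% (15.2 to 22.9) against 10.1% (9.01 to 11.3). Between 38 and 43 Mb on chromosome 10, they did so at neither time. In the chromosome 16 window, the peak numbers at 1 h were nearly equal. The ratio of MCF10A over *TUBG*-shRNA-MCF10A was 1.02 (95% exact binomial interval 0.696 to 1.49), whereas this ratio was 2.17 (1.85 to 2.54) in the rest of the lists. At 2 h, it was 2.29 (1.73 to 3.07) in the window and 7.94 (7.07 to 8.93) in the rest. These intervals cover counting error only, and neighbouring peaks are not independent, so the intervals are narrow.

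Between the times, the window as a whole also differed from the rest of the MCF10A lists. The ratio of peak numbers at 2 h over 1 h was 2.80 (2.07 to 3.83) in the window and 5.17 (4.70 to 5.70) in the rest. The value for the window pools a ratio of 13.3 (5.86 to 37.4) on the p arm with one of 1.60 (1.12 to 2.30) on the q arm, which lie on either side of that in the rest. For the *TUBG*-shRNA-MCF10A lists, it was 1.24 (0.866 to 1.79) in the window and 1.41 (1.19 to 1.68) in the rest. Pericentromeric windows on other chromosomes did not all share this pattern. Between 48 and 53 Mb on chromosome 4, the MCF10A ratio of 2 h over 1 h was 2.16 (1.75 to 2.69), close to that on chromosome 16, and between 38 and 43 Mb on chromosome 10 it was 5.83 (4.47 to 7.71). The ratio of MCF10A over *TUBG*-shRNA-MCF10A at 1 h was 2.15 (1.57 to 2.97) on chromosome 4 and 1.86 (1.21 to 2.89) on chromosome 10, with intervals that overlapped that on chromosome 16 in the latter case and lay above it in the former. At 2 h, this ratio was 3.72 (2.87 to 4.87) on chromosome 4, with an interval that overlapped that on chromosome 16. On chromosome 10 it was 9.02 (6.55 to 12.7), which lay above it.

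The peaks formed 4 stretches when peaks of all lists less than 100 kb apart were joined, and no peak lay alone. On the p arm, stretch A (chr16:33864781-34022765) held 61 peaks, stretch B (chr16:34180566-34195854) held 28 and stretch C (chr16:35239641-35285551) held 5. On the q arm, 1 stretch (chr16:46385840-46500341) held the other 260. It began close to where the unassembled heterochromatin ends, and 242 of its peaks lay in its first 49719 bp (chr16:46385840-46435558), in which no gap between the peaks of all lists reached 5 kb. These bases are called the q-arm block.

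**Figure D1:**
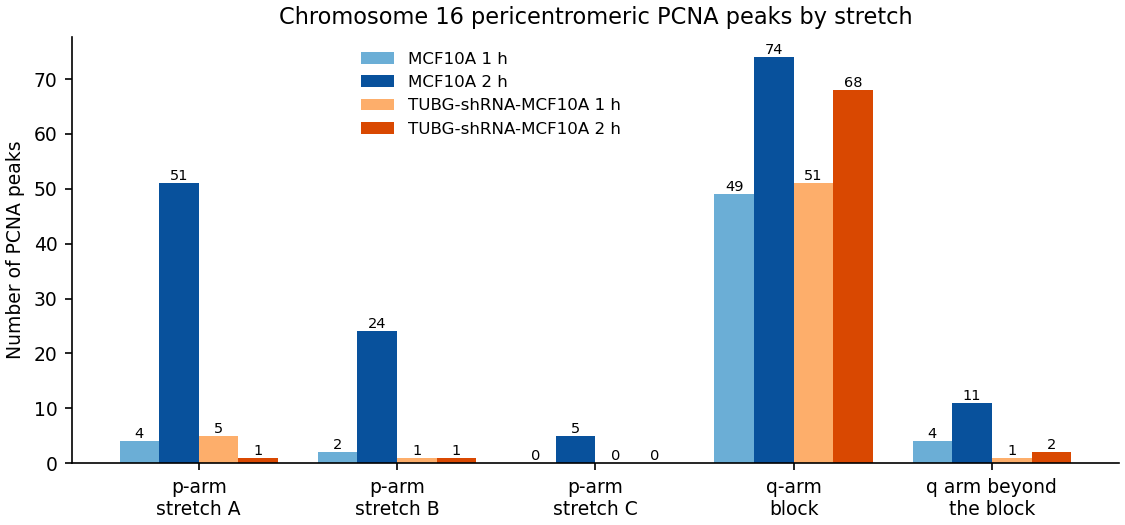
Number of PCNA peaks (y axis) in each stretch of the chromosome 16 window (x axis), with 1 bar per peak list and the number above it. The q-arm block held 49 to 74 peaks in each list, whereas the p-arm stretches were mostly filled in MCF10A at 2 h, with 51, 24 and 5 peaks. The whole list of MCF10A at 2 h was also the longest.

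The 2 arms differed in which condition held their peaks. The q-arm block had 49 peaks in MCF10A at 1 h, 74 at 2 h, 51 in *TUBG*-shRNA-MCF10A at 1 h and 68 at 2 h. The p arm had 6, 80, 6 and 2 peaks in the same order, so that MCF10A at 2 h held most of them. This list also held most of all peaks, 2768 of 4020. The p arm thus contributed 48.5% of the window's peaks in MCF10A at 2 h and 10.2%, 10.3% and 2.78% in the MCF10A list at 1 h and the *TUBG*-shRNA-MCF10A lists at 1 and 2 h. At 1 h, the ratio of MCF10A over *TUBG*-shRNA-MCF10A was 0.961 (0.636 to 1.45) in the block and 1.00 (0.267 to 3.74) on the p arm. At 2 h, the block gave 1.09 (0.772 to 1.54), an interval that holds 1, and the p arm gave 40.0 (10.7 to 336). Limited to q-values up to 1e-10, the block ratio at 2 h was 1.87 (43 against 23 peaks). On the p arm, it was 26.5 at 1e-05 and 11.5 with peaks less than 1 kb apart joined. Beyond the block, the last part of the q arm held 4, 11, 1 and 2 peaks.

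Depth and calling differed between the lists in ways that touch these numbers. The summit reads and the background of a peak were worked out from its fold enrichment and p-value. The fragment length used in calling, taken as the shortest peak of a list, was 121 bp in MCF10A at 1 h, 47 bp at 2 h, 112 bp in *TUBG*-shRNA-MCF10A at 1 h and 115 bp at 2 h. The list of MCF10A at 2 h was therefore called with a much shorter length, and its smallest called summit had 5 reads, against 14, 11 and 12 reads in the MCF10A list at 1 h and the *TUBG*-shRNA-MCF10A lists at 1 and 2 h. The genome-wide background per fragment length, taken as the smallest background in a list, was 1.88 reads in MCF10A at 1 h, 0.438 at 2 h, 1.36 in *TUBG*-shRNA-MCF10A at 1 h and 1.39 at 2 h, the last being an upper limit. These values scale with the fragment length, and per kb the lists were closer, at 15.5, 9.32, 12.1 and 12.1 reads in the same order. The part of these differences in the peak numbers was not tested.

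The block was densely covered in each list. It held 9.86 peaks per 10 kb in MCF10A at 1 h, 14.9 at 2 h, 10.3 in *TUBG*-shRNA-MCF10A at 1 h and 13.7 at 2 h. Peaks covered 23.8% of the block in MCF10A at 1 h, 65.6% at 2 h, 19.4% in *TUBG*-shRNA-MCF10A at 1 h and 36.7% at 2 h. MCF10A at 2 h thus stood apart in covered length more than in peak number. Here, 23 peaks were wider than 500 bp, and the widest (chr16:46388150-46390305) spanned 2156 bp. The other lists had 2, 0 and 3 such peaks, and their widest block peaks measured 797, 450 and 713 bp.

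**Figure D2:**
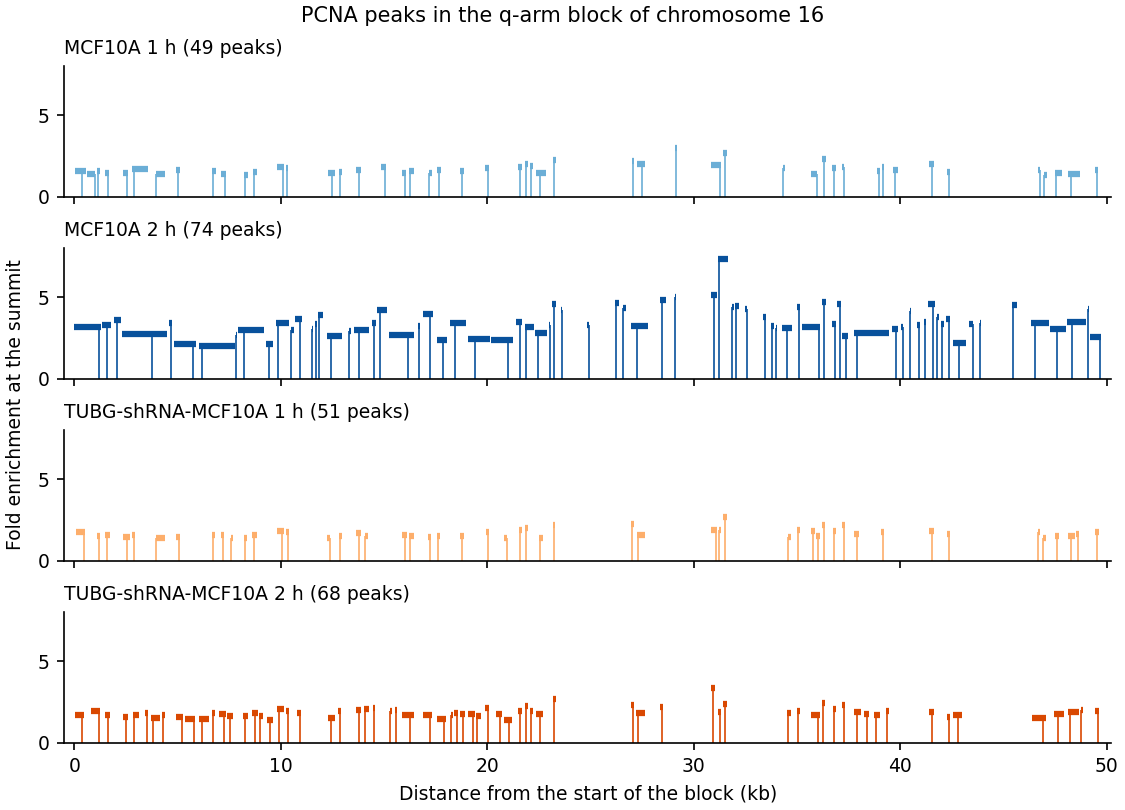
Fold enrichment at the summit (y axis) of each PCNA peak in the q-arm block against the distance from the start of the block in kb (x axis), with 1 panel per list. Vertical lines mark the summits and horizontal bars the peak widths, and in MCF10A at 2 h the peaks were higher and covered 65.6% of the block.

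Summits in the block followed each other at short distances. The median distance between neighbouring summits was 758 bp in MCF10A at 1 h (n = 48 distances), 535 bp at 2 h (n = 73), 675.5 bp in *TUBG*-shRNA-MCF10A at 1 h (n = 50) and 498 bp at 2 h (n = 67). The shares of distances under 1 kb were 62.5%, 80.8%, 72.0% and 89.6%. The 2 h list was thus the more closely spaced one in both cell populations, which largely restates its larger number of peaks in a block of fixed length. The longest distance in the block was 1881 bp in MCF10A at 2 h and between 4144 and 4404 bp in the other lists. On the p arm, the median distance was 583 bp in MCF10A at 2 h (n = 77), close to that in the block, and the few peaks of MCF10A and *TUBG*-shRNA-MCF10A at 1 h lay a median of 6989 and 4447 bp apart (n = 4 in both).

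Enrichment in the block was low relative to the rest of the same list in each of the 4 lists. The median fold enrichment of block peaks was 1.63 in MCF10A at 1 h (range 1.36 to 2.97), 3.36 at 2 h (2.01 to 7.35), 1.59 in *TUBG*-shRNA-MCF10A at 1 h (1.38 to 2.67) and 1.82 at 2 h (1.38 to 3.35). The medians of all peaks outside the window were higher in each list, at 3.20, 6.04, 2.56 and 2.52. Peaks of the p arm had medians of 4.01, 6.57, 2.68 and 4.11, and those of the last part of the q arm of 4.29, 5.09, 3.88 and 3.87. Low enrichment was thus a trait of the block and not of the window as a whole.

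The low ratios stood beside a high local background. In the block, the median background was 67.1 times the genome-wide background in MCF10A at 1 h, 38.8 times at 2 h, 90.9 times in *TUBG*-shRNA-MCF10A at 1 h and 74.7 times at 2 h. On the p arm, the medians were 2.64, 2.68, 12.2 and 6.15 times, and outside the window 8.91, 5.35, 17.7 and 19.3 times. Summits in the block were also high, with a median of 216 reads in MCF10A at 1 h, 64.5 at 2 h, 199 in *TUBG*-shRNA-MCF10A at 1 h and 193.5 at 2 h. Those of the p arm had 27.5, 14, 56 and 33 reads.

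Summit reads in the block came near a common upper value. If at most 1 read is kept at each position on each strand, a summit can hold no more than 2 reads per bp of fragment length, or 242 reads in MCF10A at 1 h, 94 at 2 h, 224 in *TUBG*-shRNA-MCF10A at 1 h and 230 at 2 h. The highest summits of the whole lists had 241, 94, 221 and 230 reads, and 0 of 4020 peaks exceeded this value. Whether duplicate reads were removed is not given in the sources used here. Median block summits lay at 89.3%, 68.6%, 88.8% and 84.1% of it. Of the block peaks, 36 of 49, 29 of 74, 40 of 51 and 38 of 68 were above 80% of this value, which is 73.5%, 39.2%, 78.4% and 55.9%. In the rest of the lists, these shares were 0.795%, 3.38%, 2.16% and 5.49%, and on the p arm no summit was above 80%.

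**Figure D3:**
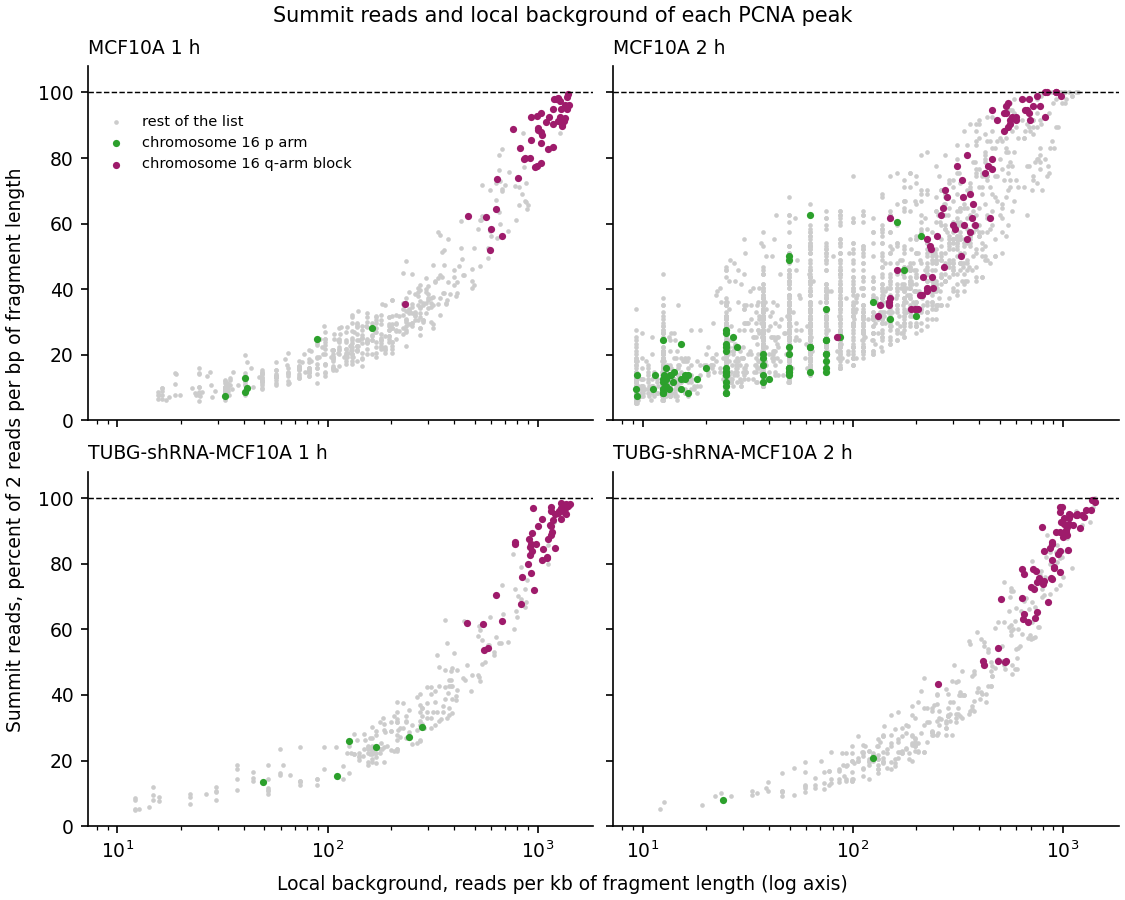
Reads at the summit, as a percent of 2 reads per bp of fragment length (y axis), against the local background in reads per kb of fragment length (x axis, log axis), with 1 point per peak and 1 panel per list. Peaks of the q-arm block (purple) lay mostly towards the upper right, at or below the dashed line at 100%, and down to 25.5% in MCF10A at 2 h. Peaks of the p arm (green) mostly lay lower, but reached 62.8% in MCF10A at 2 h. In all lists, 0 of 4020 peaks crossed the line.

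A summit at that upper value cannot show a fold enrichment beyond what the local background leaves. With the background of each block peak, the median attainable fold enrichment was 1.91 in MCF10A at 1 h, 5.29 at 2 h, 1.81 in *TUBG*-shRNA-MCF10A at 1 h and 2.20 at 2 h. These values followed the same order of conditions as the measured medians. Both ratios divide by the same background of each peak, so this match in order is largely built in. As the attainable value is computed from the background and the fragment length of each list, and both differed between lists, their part in the differences of fold enrichment was not tested.

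Many sites in the block had peaks in more than 1 list. Overlapping peaks of the 4 lists merged into 168 sites, of which 32 had a peak in each list, 6 in 3 lists, 15 in 2 and 115 in 1. All 32 lay in the block and gathered 188 of its 242 peaks, and 14 of them held exactly 1 peak per list. Sites were up to 2156 bp long, and the peaks of MCF10A at 2 h alone covered 65.6% of the block. Overlap there is thus easily met, and how many sites such coverage alone would give was not tested. Of the 115 sites seen in 1 list, 69 on the p arm and 40 on the q arm belonged to MCF10A at 2 h. The lists of MCF10A cells shared 7 sites that neither *TUBG*-shRNA-MCF10A list had, and the lists of *TUBG*-shRNA-MCF10A cells shared 0 sites that neither MCF10A list had. Few peaks were left for the latter kind of site. By 1 bp or more, 97.2% of the window's *TUBG*-shRNA-MCF10A peaks at 2 h overlapped an MCF10A peak at 2 h, against 92.8% in the whole list. The MCF10A list at 2 h is also the longest, so these 2 counts do not set the cell populations apart.

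Fewer positions recurred by summit than by peak overlap. When summits within 50 bp of each other were linked, 15 positions between 46386982 and 46433453 had a summit in each list. These positions spanned a median of 28 bp (range 1 to 93), which the linking distance keeps small. The tightest was at chr16:46407715-46407716, where the summits of the 4 lists lay within 1 bp. The fold enrichment there was 1.99 in MCF10A at 1 h, 3.17 at 2 h, 2.04 in *TUBG*-shRNA-MCF10A at 1 h and 2.28 at 2 h. At chr16:46399604-46399611, the summits lay within 7 bp, with 237, 86, 218 and 224 reads in the same order.

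MCF10A at 2 h had the highest fold enrichment at 15 of the 15 recurrent summits. The medians were 1.63 in MCF10A at 1 h (range 1.36 to 2.31), 3.35 at 2 h (2.99 to 7.35), 1.68 in *TUBG*-shRNA-MCF10A at 1 h (1.42 to 2.21) and 1.88 at 2 h (1.61 to 2.70). The values in MCF10A at 2 h did not overlap those of the other lists. Outside the window, the median fold enrichment was also highest in MCF10A at 2 h, at 6.04 against 3.20, 2.56 and 2.52. A higher value in this list is thus not particular to these summits. The local background of MCF10A at 2 h, relative to the genome-wide one, was the lowest at 15 of 15, with a median of 56.2 times against 67.1, 82.3 and 72.8 times. Summit reads relative to the genome-wide background had medians of 118, 196, 148 and 138 times. As a percent of 2 reads per bp they were nearly level, at 91.3%, 91.5%, 89.7% and 83.9%, and the attainable fold enrichment was 1.91, 3.71, 1.99 and 2.25.

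**Figure D4:**
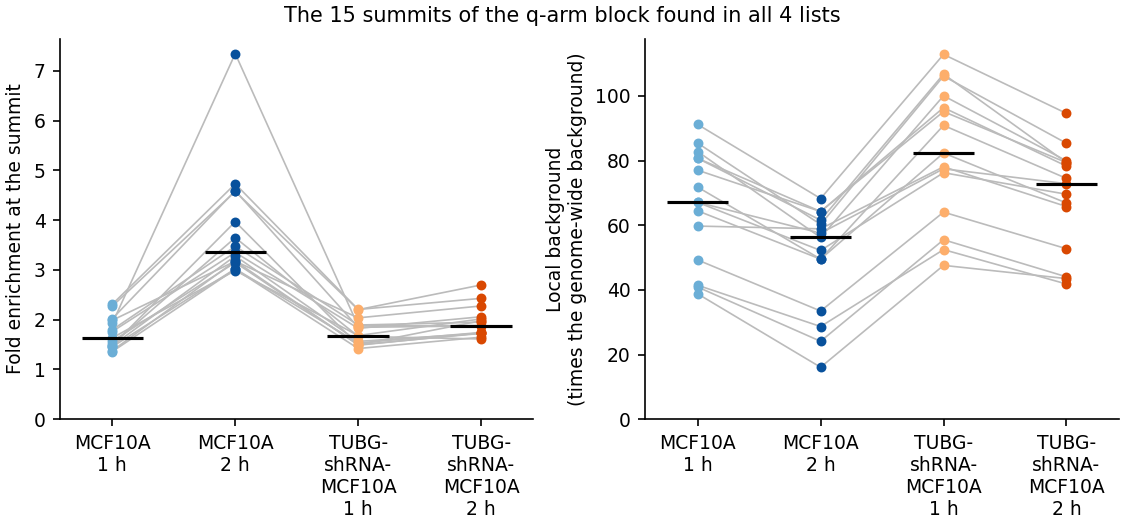
Fold enrichment (left y axis) and local background as a multiple of the genome-wide background (right y axis) at the 15 recurrent summits of the q-arm block in the 4 lists (x axis), with grey lines joining the same summit and black bars at the medians. MCF10A at 2 h had the highest fold enrichment and the lowest relative background at 15 of 15 summits. Its median fold enrichment was also the highest outside the window.

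The strongest recurrent sites lay in the middle of the block. They were ranked by the lowest −log10 q-value among the lists, each taken at the best peak of the list. The site at chr16:46416656-46417482 came first, with a −log10 q-value of 19.3 in MCF10A at 1 h, 27.4 at 2 h, 17.3 in *TUBG*-shRNA-MCF10A at 1 h and 18.0 at 2 h. It held 10 peaks, and its fold enrichments of 2.66, 7.35, 2.67 and 3.35 included the highest of the block in MCF10A at 2 h. Its best summits lay up to 578 bp apart, so the lists did not have their best peak at the same position there. The narrow site at chr16:46422024-46422260 held 1 peak per list, with summits within 15 bp and fold enrichments of 2.31, 4.73, 2.21 and 2.43.

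A similar pattern was seen at the other leading sites. At chr16:46408975-46409181, fold enrichment was 2.27 in MCF10A at 1 h, 4.58 at 2 h, 2.20 in *TUBG*-shRNA-MCF10A at 1 h and 2.70 at 2 h. At chr16:46407636-46408077, 46407210-46407507 and 46412777-46413622, the values in MCF10A at 2 h were 3.17, 3.47 and 3.22, and those of the other lists lay between 1.80 and 2.32. MCF10A at 2 h was thus highest at each of the 6 leading sites, as was its median outside the window. Of the sites found in both MCF10A lists alone, chr16:46414903-46415032 had a fold enrichment of 2.97 at 1 h and 5.04 at 2 h, and chr16:46400495-46400985 had 1.84 and 4.24. The best p-arm site of this kind, chr16:34188822-34189009, had 5.41 at 1 h and 9.03 at 2 h.

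Pairs of q-arm peaks that overlapped by at least 25% of both peaks gave the same order. Between the times in *TUBG*-shRNA-MCF10A cells, 48 pairs had a median fold enrichment of 1.60 at 1 h and 1.86 at 2 h, and 42 of 48 were higher at 2 h. At 1 h, 41 pairs of *TUBG*-shRNA-MCF10A and MCF10A peaks had medians of 1.63 and 1.61, and 15 of 41 were higher in MCF10A cells. Their summits lay a median of 12 bp apart. Between MCF10A at 1 and 2 h, 32 of 32 pairs were higher at 2 h, with medians of 1.72 and 3.25. At 2 h, 45 of 45 pairs were higher in MCF10A than in *TUBG*-shRNA-MCF10A cells, with medians of 3.18 and 1.84. Outside the window, MCF10A at 2 h also had the highest median, and pairs over the whole lists were not counted. Pairs within 1 list are neighbours on the same DNA and are not replicates of a condition.

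Overlap between lists was set against that of the whole lists with the same criterion. Of the *TUBG*-shRNA-MCF10A peaks at 1 h, 49 of 58 (84.5%) overlapped a peak at 2 h, against 58.6% in the whole list, and 43 of 58 (74.1%) overlapped a peak of MCF10A at 1 h, against 56.2%. In the opposite direction, 47 of 72 (65.3%) *TUBG*-shRNA-MCF10A peaks at 2 h overlapped a peak at 1 h, against 42.0%, and 42 of 59 (71.2%) MCF10A peaks at 1 h overlapped a *TUBG*-shRNA-MCF10A peak at 1 h, against 28.1%. In the pairs that leave out MCF10A at 2 h, the window thus exceeded the whole list, and this excess came from the q arm. There, 48 of 52 *TUBG*-shRNA-MCF10A peaks at 1 h overlapped a peak at 2 h and 41 of 52 a peak of MCF10A at 1 h, whereas on the p arm 1 of 6 and 2 of 6 did.

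Pairs with MCF10A at 2 h looked different. Of the MCF10A peaks at 1 h, 37 of 59 (62.7%) overlapped a peak at 2 h, against 79.7% in the whole list, and 46 of 72 (63.9%) *TUBG*-shRNA-MCF10A peaks at 2 h overlapped an MCF10A peak at 2 h, against 83.2%. When 1 shared bp sufficed, these shares were 93.2% against 87.2% and 97.2% against 92.8%. The deficit in the window was therefore lost with that criterion, and the peaks of MCF10A at 2 h in the block were wider, with a median of 259.5 bp against 194, 160 and 233 bp. In the opposite direction, 35 of 165 (21.2%) MCF10A peaks at 2 h overlapped a peak at 1 h, against 16.3%, and 39 of 165 (23.6%) overlapped a *TUBG*-shRNA-MCF10A peak at 2 h, against 11.8%. The arms went opposite ways here, with 30 of 85 and 38 of 85 peaks on the q arm, and 5 of 80 and 1 of 80 on the p arm.

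In MCF10A at 2 h, the p-arm stretches held the most enriched peaks of the window. In this list, the 3 peaks with the highest −log10 q-value all lay in stretch A. The first (chr16:33874034-33874130) had 15.3-fold enrichment, a −log10 q-value of 47.9 and 59 summit reads over a background of 2.93. The second (chr16:33866499-33866756) had 14.4-fold enrichment and a −log10 q-value of 37.9, and neither of these was listed in another condition. The third (chr16:33899740-33899970), with 14.1 and 36.7, lay at a site that had peaks in 3 lists.

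That site (chr16:33899616-33899986) was listed in both populations at 1 h. The peak of MCF10A at 1 h had 68 summit reads over a background of 19.7 and a fold enrichment of 3.34, and that of *TUBG*-shRNA-MCF10A at 1 h had 68 reads over 31.5 and a fold enrichment of 2.12. The summits of these 2 peaks lay at 33899886 and 33899884. *TUBG*-shRNA-MCF10A at 2 h had no listed peak there. In stretch B, the site at chr16:34183972-34184184 had a fold enrichment of 5.16 in MCF10A at 1 h, 13.4 at 2 h and 2.74 in *TUBG*-shRNA-MCF10A at 1 h. The site at chr16:33887621-33887814 was listed in both *TUBG*-shRNA-MCF10A lists, with 3.91 at 1 h and 3.18 at 2 h, and in MCF10A at 2 h.

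**Figure D5:**
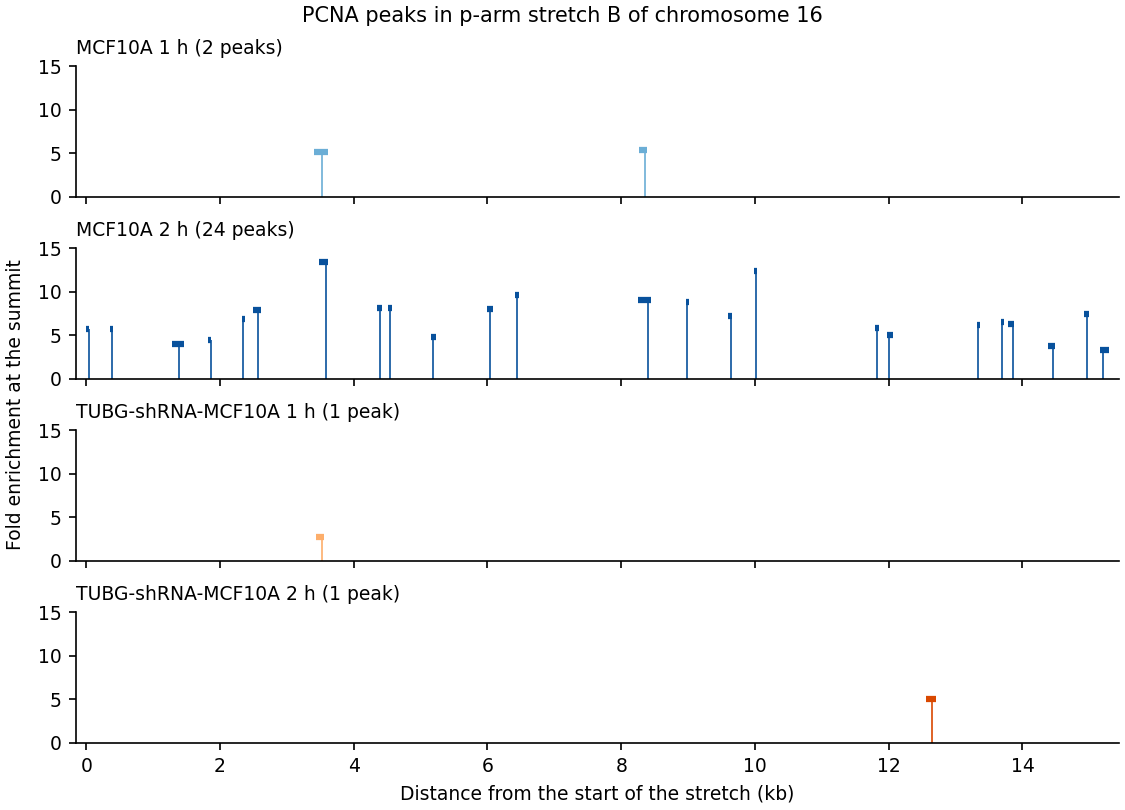
Fold enrichment at the summit (y axis) of each PCNA peak in p-arm stretch B against the distance from the start of the stretch in kb (x axis), with 1 panel per list. MCF10A at 2 h had 24 peaks and the other lists 2, 1 and 1, and 1 site, left of the middle of the stretch, was listed in 3 of them.

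No p-arm site was listed in all 4 conditions, but as *TUBG*-shRNA-MCF10A at 2 h had 2 p-arm peaks, at most 2 sites could have been. Of the 80 p-arm sites, 3 were in 3 lists, 6 in 2 and 71 in 1, and 69 of the latter were found in MCF10A at 2 h. The 3 other lists had 14 p-arm peaks together, and 12 of them overlapped a peak of MCF10A at 2 h by at least 1 bp. Over the whole lists, the share that did so was 87.2% for MCF10A at 1 h and 92.8% for *TUBG*-shRNA-MCF10A at 2 h. For *TUBG*-shRNA-MCF10A at 1 h, which gave 6 of the 12, the share over the whole list was not computed. No conclusion on the p arm is therefore drawn from this overlap. The p-arm peaks of MCF10A at 2 h were narrow, with a median width of 57 bp against 259.5 bp in the block, and small, with a median of 14 summit reads, or 32.0 times the genome-wide background. The smallest summits that passed in the other lists had 14, 11 and 12 reads at their longer fragment lengths, or 7.45, 8.10 and 8.60 times their genome-wide background, against 11.4 times in MCF10A at 2 h. These minima are of whole lists, and the reads needed to pass rise with the local background. Whether p-arm summits of this size would have passed in the other lists was therefore not tested.

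The strongest peaks of the other lists lay mostly in the block. In MCF10A at 1 h, they were chr16:46422047-46422216 and chr16:46417237-46417458, with −log10 q-values of 20.9 and 19.3, followed by the p-arm peak chr16:34183972-34184174 with 19.1. In *TUBG*-shRNA-MCF10A at 1 h, chr16:46417241-46417444 led with 17.3, followed by chr16:46423017-46423142 with 16.4 and chr16:46422067-46422197 with 16.1. At 2 h, these were chr16:46409009-46409153, chr16:46407652-46407804 and chr16:46422050-46422206, with 20.3, 19.1 and 18.8. A peak at the site chr16:46422024-46422260 was thus among the leading 3 in each list except that of MCF10A at 2 h, where the p arm led.

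Past the end of the block the median background fell to 2.32 times the genome-wide background in MCF10A at 1 h and 6.69 times at 2 h, with single values of up to 4.71 and 33.4 times. The 18 peaks of all lists there lay between 46440647 and 46500341. The strongest, chr16:46499905-46500203 in MCF10A at 2 h, had 38 summit reads over a background of 2.93 and a fold enrichment of 9.93. The single peak of *TUBG*-shRNA-MCF10A at 1 h, chr16:46454108-46454219, overlapped a peak of the same cells at 2 h, chr16:46454112-46454261, with fold enrichments of 3.88 and 3.15. As on the p arm, no site there was shared by all 4 lists, but with 1 peak in *TUBG*-shRNA-MCF10A at 1 h, at most 1 site could have been.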

How the data were processed

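PCNA ChIP-seq of 4 conditions, with 2 libraries each, was taken as 1 peak list per condition, in which the authors pooled both libraries. The submitters' processing notes name Bowtie 1.0.0, MACS2 2.1.1, bedtools 2.17.0 and hg19. The treatment of duplicates and the q-value threshold are not given in the sources used here. The deposited fold enrichment is a ratio at the summit over the local background, and the deposited −log10 p-values and −log10 q-values come from the authors' peak calling. The deposited score was not used, as it holds the −log10 q-value multiplied and cut to a whole number.

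Members were chosen by start position. Summit reads and background were solved from fold enrichment (pseudocount 1) and the Poisson p-value, with a tolerance of 0.0003 in −log10, and the solution was a whole number of reads at 100% of the peaks of every list. Neighbouring peaks were joined by distance, lists were compared by overlap of at least 25% of both peaks, and numbers were given with 95% exact binomial or Wilson intervals. As lists pool replicates, no p-value was computed. Named are the 3 peaks with the highest −log10 q-value per list, the 6 sites in all 4 lists with the highest smallest value, the 3 top sites of both MCF10A lists alone or of both *TUBG*-shRNA-MCF10A lists alone (none was found), and peaks over 100 kb from any other (none was found). Other peaks that are given by position were chosen after their values were seen. The members, comparison windows and alternatives were chosen with earlier results of these data known. The split by arm, the block and the comparison with 2 reads per bp were chosen after seeing the data. Alternatives were stricter q-values, joined peaks, base pairs covered and other overlap and linking distances. The steps were tested on simulated data. Python 3.11.15, numpy 2.4.6, pandas 2.3.3, scipy 1.17.1 and matplotlib 3.10.9 were used.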

Additional observations from a re-analysis of the deposited data

Results flagged for a closer look

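On the p arm, the change between the times went in opposite directions in the 2 cell populations. The number of peaks at 2 h over 1 h was 13.3 in MCF10A cells (80 against 6 peaks, 95% exact binomial interval 5.86 to 37.4) and 0.333 in *TUBG*-shRNA-MCF10A cells (2 against 6 peaks, 0.0329 to 1.86). The difference between these ratios was not tested, as each condition is 1 pooled list, and the interval of the second holds 1. The list of MCF10A at 2 h was called with a fragment length of 47 bp, against 112 to 121 bp in the others, and the part of this in the ratio was not tested.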

How the results depend on the processing

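Of 113 alternatives, 49 left the value within its interval or within 1.5 times a count, 63 moved it further, 4 of which give base pairs in place of peak numbers, and 1 turned a ratio whose interval lay above 1 to below 1. Other ratios below that cross 1 had intervals that hold 1. Values in the order MCF10A 1 h, MCF10A 2 h, *TUBG*-shRNA-MCF10A 1 h and 2 h are given below. At a q-value of at most 1e-05, the window's peak numbers in the lists at 1 h were 35 and 27, and at 1e-10 the numbers were 14, 67, 9 and 23. With peaks less than 1 kb apart joined they were 23, 36, 20 and 10, and the base pairs covered were 13507, 39965, 10756 and 18768. On the p arm, the numbers were 53 (MCF10A 2 h) and 3 (*TUBG*-shRNA-MCF10A 1 h) at 1e-05, 3, 21, 1 and 0 at 1e-10, and 23 with peaks joined (MCF10A 2 h). In the block, they were 29 and 23 in the 1 h lists at 1e-05, 11, 43, 8 and 23 at 1e-10, and 13, 5, 13 and 7 with peaks joined.

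The MCF10A ratio of 2 h over 1 h was 4.79 at 1e-10 and 1.57 with peaks joined in the window, 3.83 with peaks joined on the p arm, and 2.48 at 1e-05 and 3.91 at 1e-10 in the block. With peaks joined in the block it was 0.385, below 1, since its wide and closely spaced peaks fused into 5 regions. The *TUBG*-shRNA-MCF10A ratio of 2 h over 1 h was 2.07 at 1e-05, 2.56 at 1e-10 and 0.500 with peaks joined in the window, and 2.30, 2.88 and 0.538 in the block. MCF10A over *TUBG*-shRNA-MCF10A in the window was 1.56 at 1 h at 1e-10 and 3.60 at 2 h with peaks joined, and in the block at 2 h it was 1.87 at 1e-10 and 0.714 with peaks joined.

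The share of the list was 8.05% at 1e-05 and 7.11% at 1e-10 in MCF10A at 1 h, and 14.5% at 1e-10 in *TUBG*-shRNA-MCF10A at 1 h. With an overlap of 50%, 27.1% of MCF10A peaks at 1 h overlapped one at 2 h, 60.3% of *TUBG*-shRNA-MCF10A peaks at 1 h overlapped one at 2 h, and 29.2% of those at 2 h overlapped one of MCF10A cells, and with 1 bp the first and last were 93.2% and 97.2%. Sites in all 4 lists numbered 15 with summits linked within 50 bp, 19 within 100 bp and 15 at 1e-05. The median fold enrichment was 3.17 at these sites in MCF10A at 2 h, and 1.87 at 1e-05 in *TUBG*-shRNA-MCF10A at 1 h. The median summit distance was 1659.5 and 1968 bp in the 1 h lists at 1e-05, and 287 and 224 bp from end to start in the 2 h lists. Apart from joining, whose effect follows from its construction, the cause was not tested. No paired analysis was possible because the replicates of a condition share 1 list, and for the same reason no library could be left out. The part of depth in the calls was not tested.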
